A study of Mus musculus with 10 samples.

Results

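The histone genes of mouse microglia were taken as every symbol in the 10 count tables that begins with Hist1h to Hist4h, H2af, H3f3 or H1f. There were 75 such genes among 18284 symbols. Of these, 64 carry cluster names (Hist1h to Hist4h) and are called replication-dependent here by that name. Another 10 carry names of histone variants (H2af, H3f3 or H1f) and are called variant genes here by that name. The last 1, H3f3aos, is an antisense gene of H3f3a with 33 UMIs in all and is not described further. The 64 include Hist1h2al, which is annotated as a processed pseudogene, had 54 UMIs and was called in no comparison. The samples were 10 libraries of single microglia, sorted as live CD11b positive and CD45 intermediate cells from C57BL/6 mice, 2 biological replicates in each of 5 groups, and sequenced from the 3' end of polyadenylated RNA (10x Genomics 3' kit, version 2). Adult microglia were isolated directly from the brain of mice aged 10 to 15 weeks. Slice microglia came from coronal brain slices of pups at postnatal days 1 to 4, cultured for 1 day, 1 week or 3 weeks, several slices being pooled where needed. In vitro microglia came from mixed glial cultures of cortices of pups at postnatal day 2 and were collected at 3 weeks. The comparison with adult microglia thus joins culture with the age of the donor animals, and the 2 cannot be told apart. The labels also name 2 study identifiers: replicate 1 of adult and of slice 3 weeks carry 1 of them and the 8 remaining libraries the other.

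Histones package DNA: pairs of H2A, H2B, H3 and H4 form the nucleosome core, and a linker histone of the H1 family sits where the DNA enters and leaves it. Replication-dependent histone genes lie in clusters, are transcribed mainly while DNA is replicated, and give mRNAs that classically end in a conserved stem-loop rather than in a poly(A) tail, so that priming on poly(A) captures them poorly. Some genes with cluster names are also known to give polyadenylated mRNA outside S phase, so the class used here is one of names and not of measured dependence on replication. Variant genes mostly lie outside these clusters, are transcribed through the cell cycle, and mostly give polyadenylated mRNAs. They serve replacement of nucleosomes outside replication (H3.3), promoters and other regulatory sites (H2A.Z), the response to DNA breaks (H2A.X) and silent chromatin (macroH2A).

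Of the 64 replication-dependent genes, 51 lie on chromosome 13, 10 on chromosome 3, 2 on chromosome 11 and 1 on chromosome 6 (GRCm38, GENCODE annotation). The 16-base stem-loop was found in an annotated transcript of 43 of them, and among the 10 variant genes in H2afx alone. It was found in 54 of 58797 annotated coding transcripts (0.0918%). Several replication-dependent transcripts are annotated only up to the stop codon, so a missing match says no more than that the letters are not in the annotated transcript. The stem-loops below belong to genes with high counts or with differences described further on, with the stem-loop in capitals and up to 7 flanking bases on either side.
Hist1h2ap: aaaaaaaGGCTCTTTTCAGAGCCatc
Hist1h1c: tccaaaaGGCTCTTTTCAGAGCCaccactc
Hist1h1e: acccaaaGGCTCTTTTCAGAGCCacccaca
Hist1h2ae: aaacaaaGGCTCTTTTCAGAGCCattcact
Hist3h2a: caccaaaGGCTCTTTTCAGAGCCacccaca
Hist1h4i: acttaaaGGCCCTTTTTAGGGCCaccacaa
H2afx: ccacaaaGGCCCTTTTAAGGGCCaccacct
The capitals lie at chr13:21833029-21833044 (minus strand) for Hist1h2ap, chr13:23739512-23739527 (plus) for Hist1h1c, chr13:23621782-23621797 (minus) for Hist1h1e, chr13:23570668-23570683 (minus) for Hist1h2ae, chr11:58955172-58955187 (plus) for Hist3h2a, chr13:22040966-22040981 (minus) for Hist1h4i and chr9:44335240-44335255 (plus) for H2afx. The first 5 share the same 16 bases. The annotated transcripts differ in what follows the stem-loop: 3 bases in Hist1h2ap, 151 in Hist1h2ae, 330 in Hist1h4i, 822 in H2afx, 840 in Hist1h1c, 1153 in Hist1h1e and 1643 in Hist3h2a. A transcript that runs on past the stem-loop can carry a poly(A) tail.

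Promoters from RefSeq (GRCm38.p6, 250 bases before and 50 after the start) were at hand for 67 of the 75 genes. The CCAAT box, searched as CCAAT on both strands, was found in 49 of 58 replication-dependent promoters (84.5%) and 6 of 9 variant promoters, against 37.4% of all 32851 promoters. The TATA box, searched as TATAAA on both strands, was found in 33 of 58 replication-dependent promoters (56.9%) and in 1 of 9 variant promoters, that of H3f3b, against 13.6% of all. These are matches of letters, not measured sites. Shown are the 250 bases before the start of a replication-dependent gene that stood out in slice 3 weeks, Hist1h1b (chr13:21780626-21780875, minus strand), of a variant gene that was higher in every culture, H2afz (chr3:137864237-137864486, plus strand), and of one that was not called between any groups, H3f3b (chr11:116024505-116024754, minus strand), with the matches on either strand in capitals.
Hist1h1b: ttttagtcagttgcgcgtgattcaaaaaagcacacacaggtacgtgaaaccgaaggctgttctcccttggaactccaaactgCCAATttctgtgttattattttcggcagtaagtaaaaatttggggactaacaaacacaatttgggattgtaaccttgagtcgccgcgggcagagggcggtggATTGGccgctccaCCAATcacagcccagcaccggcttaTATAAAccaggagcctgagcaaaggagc
H2afz: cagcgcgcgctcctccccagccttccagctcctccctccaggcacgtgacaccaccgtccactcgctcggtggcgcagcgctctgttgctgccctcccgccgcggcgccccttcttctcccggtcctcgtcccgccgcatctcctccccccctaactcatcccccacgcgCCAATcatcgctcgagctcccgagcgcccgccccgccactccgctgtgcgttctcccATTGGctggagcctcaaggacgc
H3f3b: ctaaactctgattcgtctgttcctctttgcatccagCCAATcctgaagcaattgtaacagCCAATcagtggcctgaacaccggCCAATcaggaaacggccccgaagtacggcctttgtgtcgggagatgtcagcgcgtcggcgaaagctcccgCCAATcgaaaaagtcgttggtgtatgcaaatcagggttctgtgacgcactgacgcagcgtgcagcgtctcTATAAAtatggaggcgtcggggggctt

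Of 19637 barcodes, 19059 cells were kept, between 61 and 3799 per library, and of 18840 distinct barcodes 218 appeared in more than 1 library. UMIs summed over the kept cells of a library ranged from 385373 (slice 1 week replicate 2) to 39689540 (in vitro replicate 2), and the median per cell from 1858 (adult replicate 2) to 13966 (in vitro replicate 2). The 9 microglial markers checked were all detected, with summed levels of 26158 and 26509 CPM (counts-per-million of the UMIs of a library) in adult and 2534 to 8076 in the cultures. Neutrophil markers reached 7482 and 22079 CPM in slice 1 day and 42986 in slice 1 week replicate 1, against 1018 in slice 1 week replicate 2 and 23.9 to 192 elsewhere. Erythroid markers reached 1680 CPM in adult replicate 1 and 3324 in slice 1 day replicate 1. Of 9 lymphoid markers Cd3e, Cd8a and Gzma had no UMI, and the 6 others summed to 6.03 to 69.2 CPM. Of 5 endothelial markers Tek had no UMI, and the 4 others summed to 3.35 to 32.0 CPM. Astrocyte markers summed to 5.49 to 139 CPM, highest in adult, and oligodendrocyte markers to 17.9 to 78.3. Levels below are CPM scaled by TMM, computed on UMIs summed over the kept cells of a library, without a term for transcript length since each UMI marks 1 captured 3' end. In such sums, fewer cells that express a gene and less RNA per cell cannot be told apart.

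All 64 replication-dependent genes had at least 1 UMI, 58 of them 10 or more, and together they held 49127 UMIs against 481552 for the 10 variant genes. After the filter on low counts 35 genes were tested between groups, 25 replication-dependent and all 10 variants, and 40 were not. A gene was called at an adjusted p under 0.05 over all genes tested (edgeR's quasi-likelihood test with Benjamini-Hochberg adjustment) and a fold change over 1.5. In in vitro against adult microglia, 8 of 10 variant genes were higher and 0 lower, beside 22.4% higher and 28.5% lower among all 12155 genes tested, with a median log2 fold change of 1.49 against -0.11 for all genes. Of the 25 replication-dependent genes, 6 were higher and 3 lower there, with a median of 0.07. In slice 1 day against adult, 7 variant genes were higher and 1 lower (all genes 24.9% and 25.4%), with a median of 1.18 against -0.06, and 6 replication-dependent genes were higher and 4 lower, with a median of 0.46. In slice 1 week against adult, 5 variant genes were higher and 0 lower (all genes 15% and 13.6%), with a median of 1.13 against -0.08, and 1 replication-dependent gene was higher and 1 lower, with a median of -0.03. In slice 3 weeks against adult, 3 variant genes were higher and 0 lower (all genes 18% and 17.5%), with a median of 0.48 against -0.03, and 7 replication-dependent genes were higher and 4 lower, with a median of 0.31. These 4 comparisons share the adult libraries. The split between directions moved with the scaling: in UMIs per cell, with depth not taken out, 29 histone genes were higher and 0 lower in vitro than in adult in place of 14 and 3, 29 and 1 in slice 1 day in place of 13 and 5, 15 and 1 in slice 1 week in place of 6 and 1, and 22 and 0 in slice 3 weeks in place of 10 and 4. On that scale 80.4% of all genes were called higher and 4.69% lower in vitro, 67.9% and 3.48% in slice 1 day, 44% and 1.35% in slice 1 week, and 55.9% and 2.76% in slice 3 weeks, and the counts of histone genes on that scale are to be read against these shares. When the levels were scaled by library size only, the median over all genes moved to -0.42 in in vitro, -0.18 in slice 1 day, -0.30 in slice 1 week and -0.24 in slice 3 weeks, and the split in slice 1 week to 6 higher and 2 lower.

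Histone H3.3 is encoded by the gene pair H3f3a and H3f3b, which give the same protein. H3f3b (chr11:116021912-116027962) was the more abundant, with 1374 and 1834 CPM in the adult libraries, 1920 and 1816 in slice 1 day, 1438 and 1210 in slice 1 week, 1509 and 1265 in slice 3 weeks, and 1549 and 1590 in vitro. It was called in none of the 6 comparisons between groups, and its log2 fold change in in vitro against adult was -0.03 ± 0.17 (SE, edgeR adjusted p = 0.899). H3f3a (chr1:180800832-180813943) stood at 332 and 258 CPM in adult, 720 and 669 in slice 1 day, 911 and 686 in slice 1 week, 493 and 381 in slice 3 weeks, and 876 and 873 in vitro. Every culture library lay above both adult libraries. Its log2 fold changes against adult were 1.57 ± 0.20 in vitro (edgeR adjusted p = 7.28e-05), 1.23 ± 0.19 in slice 1 day (adjusted p = 0.000403) and 1.44 ± 0.20 in slice 1 week (adjusted p = 0.000456). In slice 3 weeks the value was 0.57 ± 0.19 with an adjusted p of 0.0382, just under the fold change required for a call. H3f3a fell from slice 1 day to slice 3 weeks by 0.67 on the log2 scale (adjusted p = 0.0246) and was higher in vitro than in slice 3 weeks by 1.00 (adjusted p = 0.00259). The fall lost its call without either slice 1 day library (adjusted p = 0.107 and 0.0881) or without slice 3 weeks replicate 2 (0.117). It was also not called (-0.29, adjusted p = 0.207) without the cells that carry neutrophil or monocyte markers described further on, where the value in slice 1 day against adult was 0.92.

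H2A.Z is encoded by H2afz (H2A.Z.1) and H2afv (H2A.Z.2). H2afz (chr3:137864487-137866922) had 352 and 335 CPM in adult, 685 and 819 in slice 1 day, 957 and 906 in slice 1 week, 711 and 532 in slice 3 weeks, and 966 and 1081 in vitro, with no overlap between adult and any culture. Its log2 fold changes against adult were 1.58 ± 0.17 in vitro, 1.13 ± 0.17 in slice 1 day, 1.44 ± 0.18 in slice 1 week and 0.86 ± 0.17 in slice 3 weeks (edgeR adjusted p = 3.09e-05, 0.000335, 0.000234 and 0.00292), and all 4 were called. H2afv (chr11:6427229-6444443) had 70.8 and 71.6 CPM in adult, 38.3 and 51.0 in slice 1 day, 105 and 102 in slice 1 week, 101 and 81.7 in slice 3 weeks, and 180 and 202 in vitro. It was thus the one variant gene called lower in a culture, by 0.66 ± 0.17 on the log2 scale in slice 1 day (adjusted p = 0.00735), and it was higher in vitro by 1.42 ± 0.17 (adjusted p = 4.63e-05). The fall in slice 1 day was not called without slice 1 day replicate 1 (-0.48, adjusted p = 0.0654). It turned to a rise of 0.91 when UMIs per cell were compared without scaling for depth, a scale on which the median of all genes stood 1.49 above adult. From slice 1 day to slice 3 weeks H2afv rose by 1.02 ± 0.17 (adjusted p = 0.00191).

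H2afj, the gene of the H2A variant H2A.J (chr6:136808244-136810074), had 87.0 and 82.3 CPM in adult, 284 and 300 in slice 1 day, 219 and 151 in slice 1 week, 154 and 104 in slice 3 weeks, and 281 and 280 in vitro. Its log2 fold changes against adult were 1.73 ± 0.21 in vitro, 1.78 ± 0.21 in slice 1 day, 1.15 ± 0.22 in slice 1 week and 0.60 ± 0.21 in slice 3 weeks (edgeR adjusted p = 5.94e-05, 6.54e-05, 0.00296 and 0.0393). All 4 were called, but the value in slice 3 weeks was not called without slice 3 weeks replicate 1 (0.29, adjusted p = 0.263) nor without either adult library (0.0876 and 0.156) or slice 1 day replicate 1 (0.0523). That in slice 1 week was not called without slice 1 week replicate 1 (0.86, adjusted p = 0.0722). The level fell by 1.18 between slice 1 day and slice 3 weeks (adjusted p = 0.00237). H2afx (chr9:44334694-44336077), whose product is phosphorylated beside DNA breaks, had 18.7 and 16.1 CPM in adult, 55.8 and 80.5 in slice 1 day, 35.6 and 40.9 in slice 1 week, 59.6 and 27.4 in slice 3 weeks, and 38.9 and 46.5 in vitro. It was higher than in adult by 1.98 ± 0.32 in slice 1 day, 1.3 ± 0.32 in slice 3 weeks and 1.29 ± 0.31 in vitro (adjusted p = 0.000489, 0.00846 and 0.00499). The value in slice 1 week was 1.1 ± 0.43, with an adjusted p of 0.0773. Without adult replicate 2 the value in slice 3 weeks was 1.2 (adjusted p = 0.0575).

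MacroH2A1 is encoded by H2afy (chr13:56073619-56136361), which had 89.0 and 120 CPM in adult, 183 and 197 in slice 1 day, 218 and 166 in slice 1 week, 132 and 141 in slice 3 weeks, and 205 and 200 in vitro. It was higher than in adult by 0.96 ± 0.18 in vitro, 0.87 ± 0.18 in slice 1 day and 0.90 ± 0.19 in slice 1 week (edgeR adjusted p = 0.000927, 0.00197 and 0.00487). The call in slice 1 week was lost without its replicate 1 (0.70, adjusted p = 0.0820). MacroH2A2, encoded by H2afy2, was rare: 0.22 and 0.52 CPM in adult, 1.57 and 3.3 in slice 1 day, 6.92 and 0 in slice 1 week, 1.81 and 0.51 in slice 3 weeks, and 5.36 and 5.56 in vitro. Adult held 7 UMIs of it and in vitro 365, a difference of 3.99 ± 0.73 on the log2 scale (adjusted p = 0.000903). H2afy2 in slice 1 week rested on 7 UMIs of replicate 1: the value was 3.80 (adjusted p = 0.0341) with it and -5.25 (adjusted p = 0.850) without it, and the call was also lost without adult replicate 1 (3.23, adjusted p = 0.108). The call in slice 1 day (2.95, adjusted p = 0.0112) was lost without adult replicate 1 (2.38, adjusted p = 0.0946) or slice 1 day replicate 2 (2.26, adjusted p = 0.171).

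Among the linker histone variants, H1f0, which encodes H1.0 and is known to be abundant in cells that have left the cell cycle, was called in no comparison between groups. It had 71.0 and 94.1 CPM in adult, 98.6 and 100.2 in slice 1 day, 131 and 97.2 in slice 1 week, 114 and 96.1 in slice 3 weeks, and 75.5 and 80.5 in vitro. H1fx (H1.X) was rare, with 0.29 and 0.52 CPM in adult, 2.10 and 1.75 in slice 1 day, 1.98 and 2.56 in slice 1 week, 0.13 and 0.28 in slice 3 weeks, and 2.02 and 2.39 in vitro. Adult and slice 3 weeks thus lay together, below the other groups. H1fx was higher in vitro than in adult by 2.5 ± 0.50 (edgeR adjusted p = 0.00156) and than in slice 3 weeks by 3.19 ± 0.51 (adjusted p = 0.000892). It fell from slice 1 day to slice 3 weeks by 2.96 (adjusted p = 0.00391). In slice 1 day it stood 2.28 above adult (adjusted p = 0.00572), a call that was lost without adult replicate 1 (1.89, adjusted p = 0.0610). Slice 1 week held 3 UMIs of H1fx against 8 in adult, so that the ratio of adult to slice 1 week was 0.175 with a 95% counting interval of 0.0419 to 1.02.

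**Figure D1:**
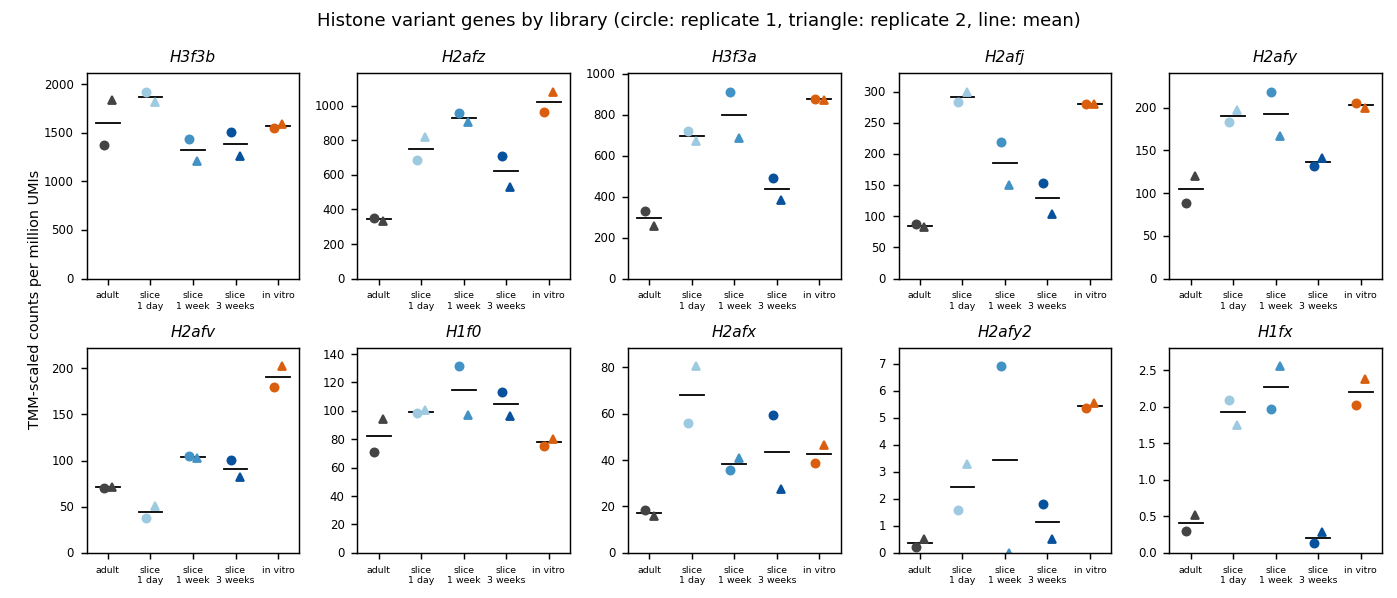
Level of the 10 histone variant genes in each library, in TMM-scaled CPM on linear axes that start at 0; circles are replicate 1, triangles replicate 2 and lines the mean of the group (n = 2). The 8 culture libraries of H3f3a, H2afz, H2afj and H2afx lie above both adult libraries, while those of H3f3b do not.

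Shares within a family do not depend on the scaling between libraries. H3f3a held 19.5% and 12.4% of the UMIs of the H3.3 pair in the adult libraries, 27.3% and 26.9% in slice 1 day, 38.8% and 36.2% in slice 1 week, 24.6% and 23.2% in slice 3 weeks, and 36.1% and 35.4% in vitro. Adult was lowest, and slice 3 weeks lay between adult and the other cultures without overlap. All shares of this kind were taken over all kept cells, among them cells with neutrophil or monocyte markers described further on. Such cells made up 21.4% and 21.5% of slice 1 day and 23.0% of slice 1 week replicate 1, and the shares were not recomputed without them. H2afv held 16.8% and 17.6% of the H2A.Z pair in adult, 5.29% and 5.86% in slice 1 day, 9.87% and 10.2% in slice 1 week, 12.4% and 13.3% in slice 3 weeks, and 15.7% and 15.8% in vitro. The order over the slices was the same in both replicates, with slice 1 day lowest and slice 3 weeks highest. The share of H1f0 among linker histone genes was 52.4% and 67.2% in adult, 44.9% to 60.5% in the slices, and 41.0% and 35.5% in vitro, where it lay below every other library. With 2 libraries a group a permutation test cannot give a two-sided p below 0.333, so these shares are given without a test. The 95% binomial intervals (Clopper-Pearson) cover counting error only and were narrow except in slice 1 week, where that for H3f3a in replicate 2 ran from 32.7% to 39.7%.

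**Figure D2:**
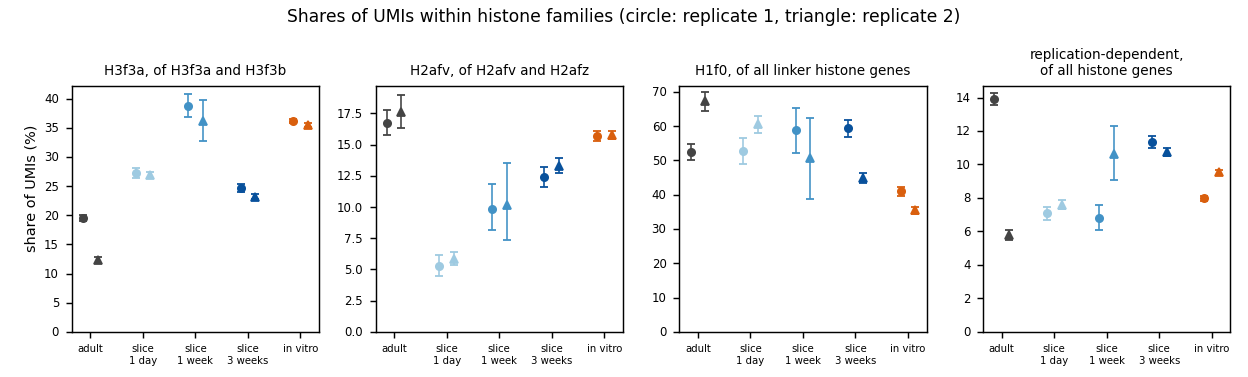
Share of UMIs (%, linear axis from 0) of H3f3a in the H3.3 pair, H2afv in the H2A.Z pair, H1f0 among linker histone genes and replication-dependent genes among all histone genes, in each library; bars are 95% Clopper-Pearson intervals, which cover counting error only. The replicates of adult lie 7 percentage points or more apart in 3 of the 4 panels, and H2afv rises from about 5% to about 13% over the 3 slice times.

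The replication-dependent genes together summed to 387 and 173 CPM in adult (280 ± 151, SD, n = 2), 304 and 332 in slice 1 day (318 ± 19.8), 294 and 399 in slice 1 week (347 ± 74.0), 418 and 316 in slice 3 weeks (367 ± 72.0), and 362 and 459 in vitro (411 ± 68.2). The adult libraries spanned the values of most other libraries. Among the 8 libraries of the shared study identifier, adult replicate 2 (173) lay below the 7 culture libraries (294 to 459), and under the other identifier slice 3 weeks replicate 1 (418) lay above adult replicate 1 (387). With 1 adult library under each identifier these differences were not tested. Hist1h2bc, Hist1h1c and Hist3h2a held 34447 of the 49127 replication-dependent UMIs (70.1%), so the sums mostly reflect these 3 genes. The variant genes summed to 2603 ± 296 CPM in adult, 4013 ± 34.6 in slice 1 day, 3693 ± 468 in slice 1 week, 2952 ± 457 in slice 3 weeks and 4270 ± 129 in vitro (SD, n = 2 each). Replication-dependent genes thus held 5.79% to 13.9% of histone UMIs. By type, the 5 H1 genes held 28.3% of the replication-dependent UMIs, the 18 H2A genes 28.5%, the 16 H2B genes 35%, the 12 H3 genes 1.66% and the 13 H4 genes 6.62%. By annotated end, the 21 genes with 100 or more bases after the stem-loop held 52.3%, the 22 with fewer bases after it 12.1%, and the 21 with no stem-loop in the annotated transcript 35.6%. The capture of these RNAs through poly(A) was not tested.

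The 12 replication-dependent genes with the highest mean level held 92.4% of the replication-dependent UMIs. Hist1h2bc, an H2B gene, had 84.9 and 38.4 CPM in adult, 101 and 70.8 in slice 1 day, 96.8 and 177 in slice 1 week, 94.2 and 86.9 in slice 3 weeks, and 128 and 184 in vitro. Its call in in vitro against adult (1.33 ± 0.36, edgeR adjusted p = 0.00901) was lost without adult replicate 2 (0.88, adjusted p = 0.0604). Hist1h1c, the linker histone gene of H1.2, had 56.6 and 41.1 CPM in adult, 79.9 and 53.4 in slice 1 day, 84.0 and 81.9 in slice 1 week, 58.1 and 40.9 in slice 3 weeks, and 97.1 and 132 in vitro. It was higher in vitro than in adult by 1.22 ± 0.25 (adjusted p = 0.00176) and than in slice 3 weeks by 1.22 ± 0.25 (adjusted p = 0.00348), with both in vitro libraries above every other library. Hist1h4i, an H4 gene, had 6.30 and 1.93 CPM in adult, 15.7 and 21.7 in slice 1 day, 14.8 and 33.3 in slice 1 week, 6.34 and 4.75 in slice 3 weeks, and 15 and 15.9 in vitro. Adult and slice 3 weeks lay below the 3 other groups. Its log2 fold changes against adult were 1.82 ± 0.41 in vitro, 2.12 ± 0.43 in slice 1 day and 2.27 ± 0.59 in slice 1 week (adjusted p = 0.00336, 0.00190 and 0.0157), the last one not called without slice 1 week replicate 2 (1.72, adjusted p = 0.121). Hist1h4i also fell from slice 1 day to slice 3 weeks by 1.81 (adjusted p = 0.00949) and was higher in vitro than in slice 3 weeks by 1.51 (adjusted p = 0.0135), calls that were lost without slice 3 weeks replicate 2 (adjusted p = 0.0511 and 0.0597), without slice 1 day replicate 2 for the former (0.0959) and without in vitro replicate 2 for the latter (0.0563).

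Hist3h2a, an H2A gene outside the large clusters, went the other way. It had 130 and 60.8 CPM in adult, 38.0 and 28 in slice 1 day, 38.5 and 58.8 in slice 1 week, 34.2 and 24.7 in slice 3 weeks, and 62.9 and 57.5 in vitro. It was lower than in adult by 1.55 on the log2 scale in slice 1 day and by 1.71 in slice 3 weeks (edgeR adjusted p = 0.00239 and 0.00193). It overlaps Trim17 on the same strand, and reads in the overlap cannot be shared out here. Hist1h2be had 10.5 and 5.54 CPM in adult, 1.31 and 0.72 in slice 1 day, 0 in both slice 1 week libraries, 2.33 and 2.19 in slice 3 weeks, and 1.12 and 1.52 in vitro. Both adult libraries lay above all others. Hist1h2be was lower by 2.62 in vitro, by 3.14 in slice 1 day and by 1.86 in slice 3 weeks (adjusted p = 0.000396, 0.000667 and 0.00576), the last one not called without adult replicate 1 (-1.24, adjusted p = 0.0946). With 0 UMIs in slice 1 week its level there was at least 4.08-fold lower, against a floor of 3 UMIs over the group, and the call there (edgeR adjusted p = 0.0111) was lost without slice 1 week replicate 1 (0.168). It overlaps Hist1h1e on the same strand. Hist2h2be, an H2B gene, had 4.98 and 4.51 CPM in adult and 1.63 to 3.67 in the other 8 libraries. It fell by 1.45 in vitro (adjusted p = 0.00301) and by 1.44 in slice 3 weeks (adjusted p = 0.00791), the former lost without in vitro replicate 1 (adjusted p = 0.0614) and the latter without adult replicate 1 or slice 3 weeks replicate 2 (0.0637 and 0.0548). In UMIs per cell without scaling for depth, Hist2h2be in vitro turned to 0.70 and Hist2h4 to 0.22 above adult, neither of them called. On that scale 80.4% of all genes were called higher in vitro. Hist2h4 and Hist4h4, both H4 genes, owed their lower calls to adult replicate 1: Hist2h4 had 6.45 and 1.42 CPM in the adult libraries and Hist4h4 5.79 and 1.03. Without that library, Hist2h4 was -0.18 in vitro (adjusted p = 0.848) in place of -1.80, and -0.44 in slice 1 day (0.636) in place of -2.01, and Hist4h4 was -0.72 in slice 1 day (0.572) in place of -2.56. None of the 3 was called without either slice 1 day library or, for the value in vitro, without either in vitro library (adjusted p = 0.0744 to 0.242), and the value of Hist2h4 in slice 1 day lost its call without either in vitro library too (0.0546 and 0.0554).

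Hist1h1e, Hist1h4d, Hist2h2ac and Hist1h1b had their highest level in slice 3 weeks replicate 2. Hist1h1e, the gene of H1.4, had 9.96 and 53.3 CPM in slice 3 weeks against 4.12 to 10.2 in the other 8 libraries. In slice 3 weeks replicate 2 its 1145 UMIs came from 651 cells (17.4% of cells) with at most 18 in a cell, and in replicate 1 its 77 UMIs came from 60 cells. The difference from adult was 2.44 ± 0.60 (edgeR adjusted p = 0.00888) and was 0.79 (adjusted p = 0.113) without replicate 2, and was not called without adult replicate 2 either (2.11, adjusted p = 0.0678). Hist1h4d had 3.10 and 14.5 CPM in slice 3 weeks against 0 to 2.20 elsewhere, and 2.26 against adult became 0.75 (adjusted p = 0.243) without replicate 2, with the call also lost without either adult library (adjusted p = 0.0521 and 0.0726). Hist2h2ac, an H2A gene, had 3.10 and 8.71 CPM there against 0 to 3.67 elsewhere, and 2.32 became 1.38 (adjusted p = 0.0618). Its call in slice 1 day against adult (1.53, adjusted p = 0.0405) was lost without any 1 of the 4 libraries compared (adjusted p = 0.0712 to 0.151). Hist1h1b, the gene of H1.5, had 7.76 and 19.7 CPM in slice 3 weeks, 2.60 and 3.93 in vitro, 1.31 and 4.12 in slice 1 day, 0 in both slice 1 week libraries, and 0 and 0.13 in adult. A single UMI was counted in adult, so that its ratios carry wide counting intervals: 354 (95% interval 63.2 to 13994) for slice 3 weeks, 70.9 (12.6 to 2813) in vitro and 71.3 (12.2 to 2877) for slice 1 day. The 45 UMIs of slice 1 day split into 5 and 40, and the call there was lost without replicate 2 (edgeR adjusted p = 0.0694). Between groups with more UMIs, Hist1h1b was higher in slice 3 weeks than in slice 1 day by 2.19 ± 0.57 (adjusted p = 0.0175) and lower in vitro than in slice 3 weeks by 2.10 (adjusted p = 0.00900). Neither was called without slice 3 weeks replicate 2 (adjusted p = 0.133 and 0.111), the former also not without slice 1 day replicate 1 (0.0812) and the latter not without in vitro replicate 1 (0.0887). Hist1h2ae, an H2A gene, was high in both slice 3 weeks libraries, at 19.0 and 13.0 CPM, against 1.29 to 9.48 elsewhere, and its difference from adult was 2.34 ± 0.44 (adjusted p = 0.00214). Its call in slice 1 day (1.28, adjusted p = 0.0392) was lost without adult replicate 2 (0.163), slice 1 day replicate 2 (0.397) or slice 1 week replicate 2 (0.0502). Of the rarer genes, Hist1h2ag had no UMI in adult and was at least 10.9-fold higher in vitro and at least 23.8-fold higher in slice 1 day. In slice 3 weeks Hist1h2ag had 7 and 3 UMIs (0.91 and 0.14 CPM), and its call against adult (edgeR adjusted p = 0.0473) was lost without any 1 of 9 libraries. Hist1h2bj, an H2B gene with 1 adult UMI, had a ratio to adult of 41.2 (6.77 to 1689) in slice 1 day, 13.5 (2.29 to 545) in vitro and 19.8 (3.26 to 811) in slice 3 weeks, with intervals for counting error only. The call in vitro was lost without either adult library or in vitro replicate 2 (edgeR adjusted p = 0.101, 0.131 and 0.113), and that in slice 3 weeks without either adult library or slice 3 weeks replicate 1 (0.0727, 0.0771 and 0.0590). Hist2h3c1, an H3 gene, had 2.71 and 2.70 CPM in adult and 1.03 and 0.70 in slice 3 weeks, a fall of 1.71 (adjusted p = 0.0290) that was lost without any 1 of either adult library, slice 3 weeks replicate 2 or either in vitro library.

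Hist1h2ap, an H2A gene with 3 annotated bases after its stem-loop, varied widely between replicates. It had 42.5 and 1.03 CPM in adult, 8.65 and 86.4 in slice 1 day, 18.8 and 10.2 in slice 1 week, 141 and 18.9 in slice 3 weeks, and 16.2 and 19.7 in vitro, and it was called in no comparison between groups. In adult replicate 1 it was seen in 417 cells, of which 15 (3.60%) were positive for cell cycle markers as defined below, and in adult replicate 2 in 7 cells, of which 5 were. In the cultures 25% to 77.2% of the cells with a UMI were positive. The cells with 5 or more UMIs of it, 28 in slice 1 day replicate 2, 57 and 27 in slice 3 weeks, 20 and 34 in vitro, 7 in adult replicate 1 and 1 in slice 1 week replicate 1, were all positive. In adult replicate 1 most of its cells thus held fewer than 5 UMIs of it and fewer than 3 UMIs of cycle markers, and the part that RNA outside cells plays in this was not tested.

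**Figure D3:**
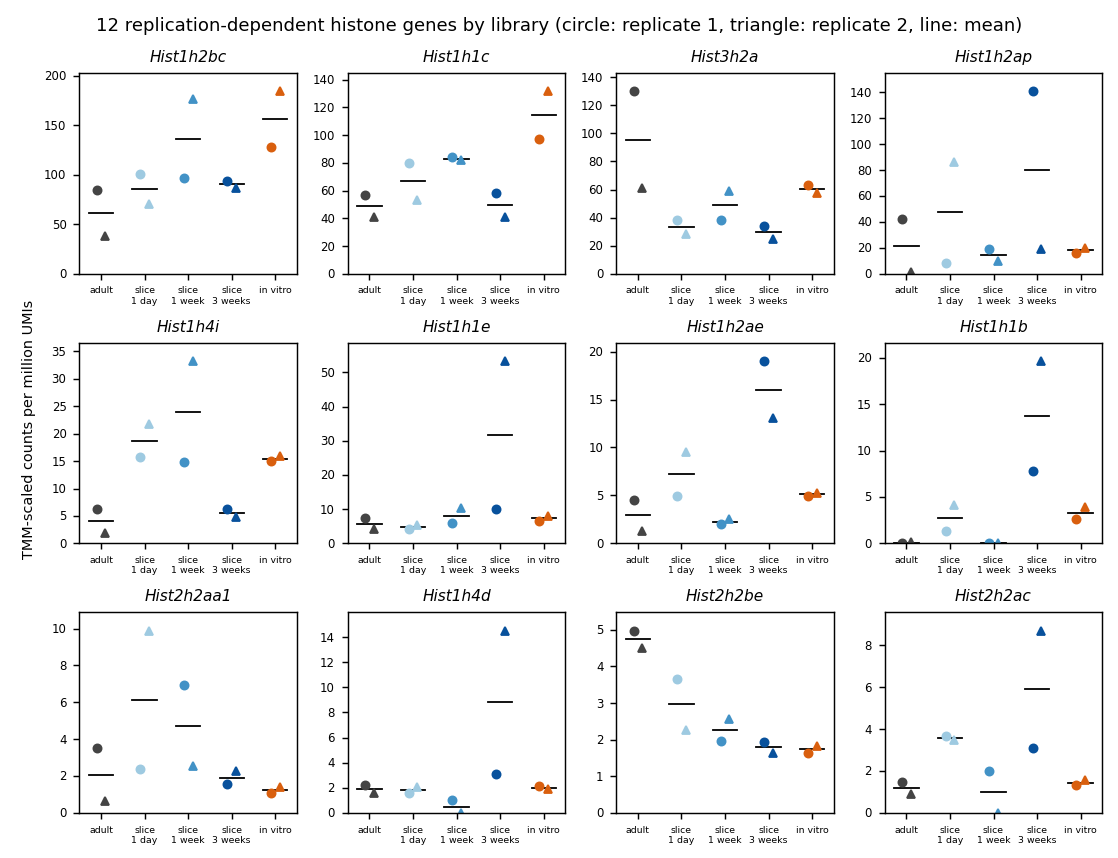
Level of the 12 most abundant replication-dependent histone genes in each library, in TMM-scaled CPM on linear axes from 0; circles are replicate 1, triangles replicate 2 and lines the mean of the group (n = 2). Replicates lie far apart for Hist1h2ap (141 and 18.9 in slice 3 weeks), Hist1h1e (9.96 and 53.3) and Hist1h4d (3.10 and 14.5), and close together for Hist1h4i in vitro (15 and 15.9).

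Both cultures kept for 3 weeks were compared with each other. In vitro against slice 3 weeks, 6 of 10 variant genes were higher and 0 lower (all genes 13.3% and 20%), with a median log2 fold change of 0.86 against -0.10, and 3 replication-dependent genes were higher and 5 lower, with a median of -0.63. In UMIs per cell, with depth not taken out, 17 histone genes were higher and 2 lower in place of 9 and 5, beside 52.7% and 5.55% of all genes. The variant genes higher in vitro were H1fx, H2afy2, H2afj (1.12), H2afv (1.07), H3f3a and H2afz (0.72, edgeR adjusted p = 0.00798). The replication-dependent genes higher in vitro were Hist1h4i, Hist1h1c and Hist3h2a (1.05, adjusted p = 0.0239), and those lower were Hist1h4d, Hist1h1e, Hist1h1b, Hist2h2ac and Hist1h2ae (-1.63, adjusted p = 0.00922). Without slice 3 weeks replicate 2 the values of Hist1h4d, Hist1h1e and Hist2h2ac were -0.56, -0.39 and -1.03 and none was called, nor was Hist3h2a (0.88, adjusted p = 0.115) or H2afy2 (1.65, adjusted p = 0.0506). Leaving out an in vitro library ended the calls of Hist1h4d, Hist1h1e, Hist1h2ae and Hist3h2a in either case (adjusted p = 0.0544 to 0.0893), of Hist2h2ac without replicate 1 (0.0611), and of H2afz and H2afy2 without replicate 2 (0.0518 and 0.0509). Over the slice cultures, from 1 day to 3 weeks, 1 variant gene rose and 3 fell (all genes 13.9% and 12.8%), with a median of -0.57 against 0.05, and 3 replication-dependent genes rose and 3 fell, with a median of -0.16. In UMIs per cell 3 histone genes rose and 10 fell in place of 4 and 6, beside 2.68% and 17% of all genes. The 3 that rose were Hist1h1e, Hist1h4d and Hist1h1b, and none of them was called without slice 3 weeks replicate 2, nor Hist1h1e and Hist1h4d without either slice 1 day library (adjusted p = 0.0559 to 0.128). The 3 that fell were Hist1h2ag (-2.99, adjusted p = 0.0141), Hist2h3c1 (-1.88, adjusted p = 0.0314) and Hist1h4i, which were not called without that library either (adjusted p = 0.0758, 0.188 and 0.0511). Hist1h2ag was also not called without slice 1 day replicate 2 (0.132), and Hist2h3c1 not without slice 1 day replicate 1 (-1.09, adjusted p = 0.218) or either in vitro library (0.0526 and 0.0543).

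**Figure D4:**
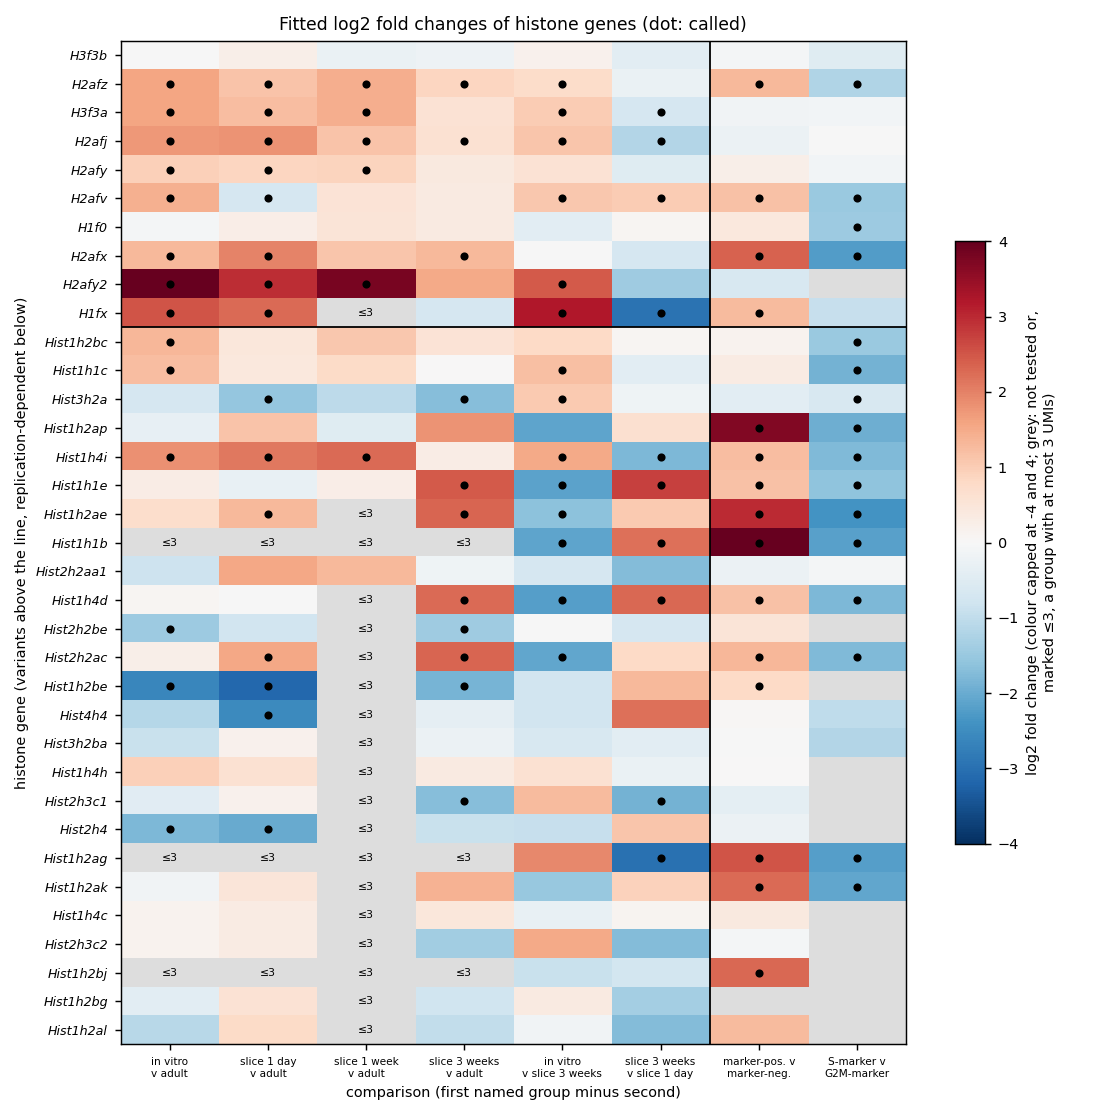
Fitted log2 fold changes (colour, capped at -4 and 4) of the 35 histone genes tested between groups, in 6 comparisons of groups and 2 of cell classes; dots mark called genes, and grey cells were not tested or had a group with at most 3 UMIs. The variant genes above the line are mostly red against adult, and the last column, S-marker against G2M-marker cells, is blue or near 0 in all genes tested.

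Cells were next split by cell cycle markers that hold no histone gene: 13 genes of S phase (Rrm2, Tyms, Mcm3 and others) and 13 of G2 and M phase (Mki67, Top2a, Ccnb2 and others). A cell with at least 3 UMIs over these 26 genes was called marker-positive. This held for 1.29% and 1.22% of adult cells, 25.1% and 51.4% in slice 1 day, 18.9% and 34.4% in slice 1 week, 31.3% and 14.2% in slice 3 weeks, and 34.4% and 42.0% in vitro. Among these cells, 64 of 521 in slice 1 day replicate 2 and 6 of 28 in slice 1 week replicate 1 carried neutrophil or monocyte markers, described further on. Elsewhere 0 or 1 did, and the comparisons of cell classes were not rerun without them. Marker-positive cells were deeper in every library, for example with 17311 against 11579 median UMIs in in vitro replicate 1, and deeper cells reach 3 UMIs more easily. The levels below are in CPM, which does not even out this choice of cells. Of 30 replication-dependent genes tested, 17 were higher in marker-positive cells and 0 lower, beside 5.04% and 3.98% of all 11749 genes tested (median 1.19 against -0.09), and of 10 variant genes 4 were higher and 0 lower (median 0.33). Over all histone genes tested the median was 1.16, and it was 0.60 with a cut of 2 marker UMIs and 1.51 with 5. Over this split and the next, 3 calls of named genes were lost with 2 and 1 with 5, and none changed direction. The summed replication-dependent level was higher in marker-positive cells in 9 of 10 libraries, at 0.99 to 2.66 times that in marker-negative cells.

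H2afz had 967 to 1680 CPM (median 1148) in marker-positive and 320 to 713 (median 478) in marker-negative cells of the 10 libraries, with no overlap. Its log2 fold change was 1.29 ± 0.07 (edgeR adjusted p = 4.83e-12). H2afx had 71.1 to 233 CPM (median 97.9) against 5.13 to 44.3 (median 18.7), again without overlap, and was higher by 2.37 ± 0.21 (adjusted p = 1.73e-08). H2afv was higher by 1.17 ± 0.14 (adjusted p = 1.98e-06), in 10 of 10 libraries, and H1fx by 1.26 ± 0.37 (adjusted p = 0.0169), in 7 of 10, the latter not called without either in vitro library (0.109 and 0.102). H3f3a, H3f3b, H2afj and H2afy had log2 fold changes between -0.23 and 0.24. H2afj, at 54.2 to 305 CPM in positive and 83.4 to 323 in negative cells, was nevertheless lower in the positive cells of 10 of 10 libraries (-0.23 ± 0.07, adjusted p = 0.0156). Of the replication-dependent genes, Hist1h1b had 0 to 97.6 CPM in positive and 0 to 0.96 in negative cells, and was higher by 5.93 ± 0.30 (adjusted p = 2.37e-11). Hist1h2ap, higher by 3.70 ± 0.22 (adjusted p = 2.66e-11), had 5.05 to 382 CPM against 0.27 to 34.4 and was higher in 9 of 10 libraries, the exception being slice 1 week replicate 2 with 61 cells. Hist1h2ab (4.41), Hist1h2af (3.56), Hist1h2ai (3.37), Hist1h1a (3.31), Hist1h2ac (3.04), Hist1h2ae (2.99) and Hist1h2an (2.76) were also called, all of them H2A genes except the H1 gene Hist1h1a. Hist1h4d (1.16) and Hist2h2ac (1.32) were called, but not without slice 3 weeks replicate 2 (adjusted p = 0.0615 and 0.0704), and Hist1h2be (0.79, adjusted p = 0.0468) lost its call without any 1 of 7 libraries. Abundant genes had smaller values: Hist1h2bc by 0.13 ± 0.12, Hist1h1c by 0.31 ± 0.16 and Hist3h2a by -0.41 ± 0.10, the last lower in 10 of 10 libraries, and none of the 3 was called (adjusted p = 0.433, 0.162 and 0.00488).

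Marker-positive cells with more S-phase UMIs were compared with those with more G2 and M-phase UMIs in 9 libraries, adult replicate 2 having only 9 cells of the latter class. Replication-dependent histone genes are textbook genes of S phase, yet the UMIs of the genes so named were lower in the S-marker cells. Of the 13 S-phase markers, which helped to set the classes, 8 were higher in S-marker cells, 1 was lower and 4 were not called. Their median was 0.80, against -3.56 for the G2 and M-phase markers, all 13 of them lower. Whether the S-marker cells were in S phase was not tested. Of 19 replication-dependent genes tested, 0 were higher in S-marker cells and 14 lower, beside 1.48% and 3.42% of all 10118 genes tested (median -1.78 against 0.03), and of 9 variant genes 0 were higher and 4 lower (median -0.91). The summed replication-dependent level was 164 to 350 CPM (median 248) in S-marker cells and 507 to 1432 (median 759) in G2M-marker cells, without overlap and in the same direction in 9 of 9 libraries. Hist1h1c was lower in S-marker cells by 1.89 on the log2 scale (edgeR adjusted p = 4.58e-16), Hist1h2bc by 1.49 (2.29e-13), Hist1h4i by 1.75 (2.85e-10), Hist1h1e by 1.61 (2.14e-08) and Hist1h2ap by 1.95 (2.27e-08). Hist1h2ab (-2.96), Hist1h2ae (-2.39) and Hist1h2ag (-2.21) had the lowest called values, at low levels. Their medians were 0, 4.79 and 0.58 CPM in S-marker cells and 1.36, 16.5 and 4.84 in G2M-marker cells. Of 9 libraries, Hist1h2ab was higher in S-marker cells in 2, Hist1h2ae in 0 and Hist1h2ag in 1, and lower in 6, 8 and 7. Hist3h2a was at -0.64 ± 0.12 (adjusted p = 0.000303), a call that lay under the fold required without slice 3 weeks replicate 2 (-0.53), and Hist2h2aa1 at -0.06 ± 0.34 was not called.

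Among the variant genes 4 were called in the same split. H2afx had 8.53 to 72.7 CPM (median 22.3) in S-marker and 113 to 618 (median 171) in G2M-marker cells and was lower in the former by 2.24 on the log2 scale (edgeR adjusted p = 1.70e-13). H2afv was lower by 1.47 (adjusted p = 1.42e-14), H1f0 by 1.45 (5.13e-11) and H2afz by 1.20 (1.27e-12), each in 9 of 9 libraries. H1f0, which was called nowhere between groups, had 25.6 to 80.2 CPM in S-marker and 118 to 316 in G2M-marker cells, without overlap. H3f3a (-0.12 ± 0.07), H2afj (-0.02 ± 0.07) and H2afy (-0.10 ± 0.07) were not called, nor was H1fx (-0.91 ± 0.39, edgeR adjusted p = 0.129). H3f3b was at -0.48 ± 0.07 (adjusted p = 4.57e-06), under the fold required. The median UMIs per cell of S-marker and G2M-marker cells were, for example 7055 and 6615 in slice 3 weeks replicate 2 and 4517 and 5890 in adult replicate 1.

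**Figure D5:**
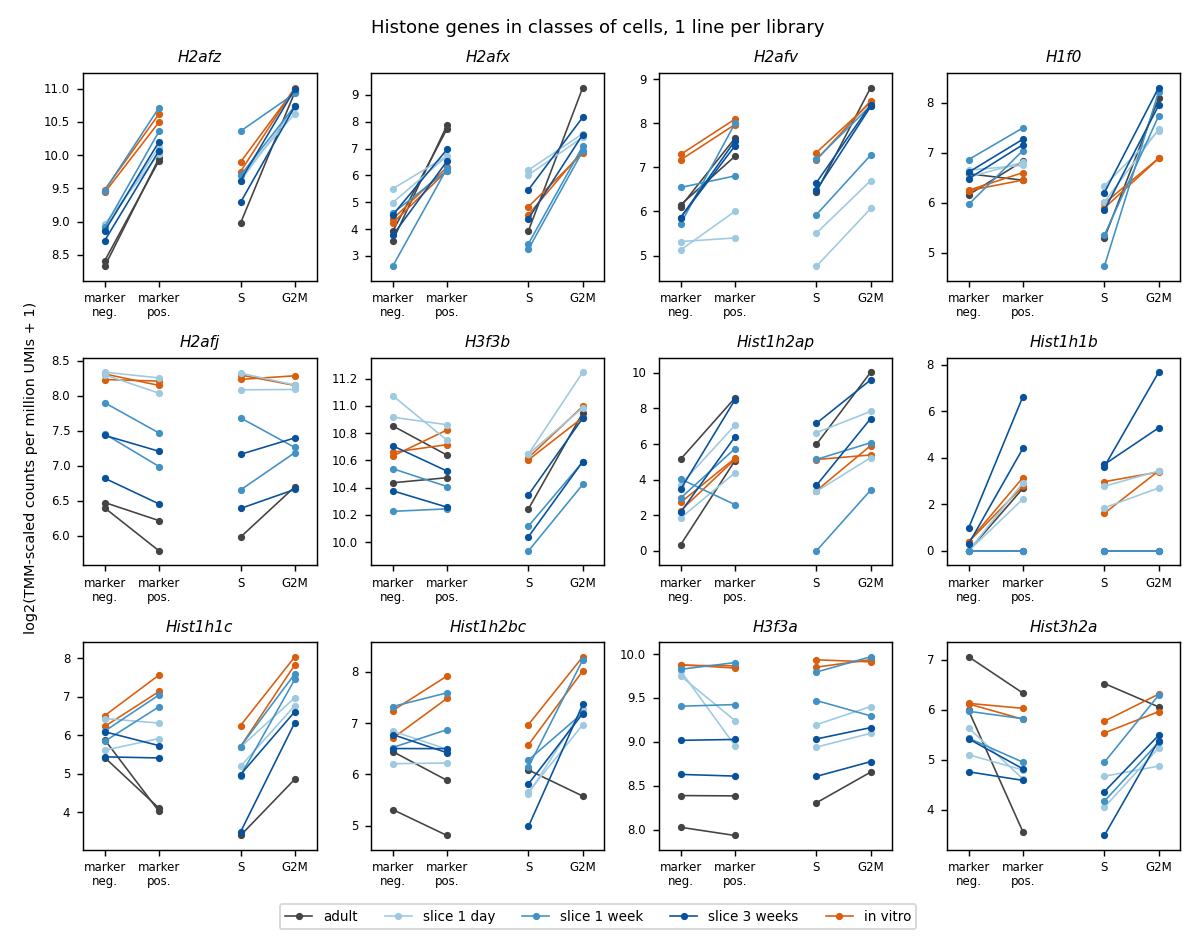
Level of 12 histone genes, as log2(TMM-scaled CPM + 1) with a separate axis range per gene, in marker-negative and marker-positive cells (10 libraries) and in S-marker and G2M-marker cells (9 libraries, adult replicate 2 left out); each line joins the classes of 1 library. All lines of H2afz and H2afx rise to the marker-positive cells, and all lines of H2afz, H2afx, H2afv, H1f0 and Hist1h1c rise from S-marker to G2M-marker cells.

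The share of marker-positive cells moved with the groups, at about 1% in adult and 14.2% to 51.4% in the cultures, so each comparison with adult was repeated without these cells and, as an alternative chosen after seeing the data, within them. Without marker-positive cells, H3f3a stood 1.66 above adult in vitro, 1.57 in slice 1 day and 1.44 in slice 1 week, and H2afj 1.85, 1.90 and 1.32, all called by edgeR's quasi-likelihood test, values close to those over all cells. H2afz was at 1.09 in vitro and 0.89 in slice 1 week (called) but at 0.57 in slice 1 day and 0.43 in slice 3 weeks (not called). H2afx was at 1.60 in slice 1 day (called), 0.57 in vitro and 0.40 in slice 3 weeks (not called). Within marker-positive cells, where adult gave 49 and 43 cells, H3f3a was at 1.62 in vitro, 0.88 in slice 1 day and 1.49 in slice 1 week, and H2afj at 2.10, 2.07 and 1.21, the last not called (adjusted p = 0.0523). H2afz was at 0.58 in vitro, 0.10 in slice 1 day, 0.60 in slice 1 week and 0.15 in slice 3 weeks, none called. H2afx was lower than in adult, by 1.61 in vitro (adjusted p = 0.000106), by 1.12 in slice 1 day (0.00171) and by 1.09 in slice 3 weeks (0.00490), the opposite of its direction over all cells, with 69 and 43 UMIs in the adult libraries. Hist1h1c was higher in vitro by 3.34 within marker-positive cells (adjusted p = 4.67e-05), where adult held 8 UMIs of it, and by 0.71 without them (0.0405). In vitro against slice 3 weeks, the median log2 fold change of the histone genes tested was -0.005 over all cells. It was 0.26 without marker-positive cells and -0.52 within them. From slice 1 day to slice 3 weeks the median was -0.42 over all cells, -0.36 without them and 0.10 within them. The summed replication-dependent level without marker-positive cells was 262 ± 141 CPM in adult, 260 ± 58.2 in slice 1 day, 286 ± 72.2 in slice 1 week, 242 ± 11.9 in slice 3 weeks and 307 ± 46.1 in vitro (SD, n = 2 each), so the groups again overlapped.

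Counted by cell, a UMI of any replication-dependent gene was seen in 67.9% and 29.9% of adult cells, 59.7% and 71.7% in slice 1 day, 73.0% and 68.9% in slice 1 week, 63.9% and 55.1% in slice 3 weeks, and 84.7% and 88.4% in vitro. After thinning each cell to 1000 UMIs, the shares were 33.2% and 17.2% in adult, 20.7% and 21.5% in slice 1 day, 27.7% and 23.7% in slice 1 week, 23.2% and 19.7% in slice 3 weeks, and 23.4% and 28.1% in vitro. Thinning left out 66 and 205 adult cells and 2 cells of slice 1 week replicate 2. At equal depth the adult libraries thus spanned all others, adult replicate 2 lying below the 7 culture libraries that share its study identifier and adult replicate 1 above slice 3 weeks replicate 1, and the order of the unthinned shares did not remain. No sorted cell type lacks histone genes, so a background share from free RNA was not measured.

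Genes that make, carry or exchange histones were read from the same fits. The histone chaperones, which carry histones to and from DNA, had 8 of 25 genes higher and 3 lower in vitro than in adult, 11 and 2 in slice 1 day, 6 and 3 in slice 1 week, and 10 and 2 in slice 3 weeks. As shares these are 32% and 12%, 44% and 8%, 24% and 12%, and 40% and 8%, beside 22.4% and 28.5%, 24.9% and 25.4%, 15% and 13.6%, and 18% and 17.5% of all genes. The subunits of chromatin assembly factor 1, which deposits new H3 and H4 behind the replication fork, were among the largest, with Chaf1a at 3.94 and Chaf1b at 3.19 in vitro and 4.59 and 3.69 in slice 1 day. Asf1b, which hands H3 and H4 to such factors, was at 1.91 in vitro, 2.01 in slice 1 day and 1.82 in slice 3 weeks (called), and at 1.51 in slice 1 week (edgeR adjusted p = 0.0827). In marker-positive cells 11 chaperones were higher and 0 lower (all genes 5.04% and 3.98%), led by Asf1b (3.12) and Chaf1a (3.00). S-marker against G2M-marker cells had 2 higher and 3 lower (all genes 1.48% and 3.42%), with Chaf1b at 1.11 and Hjurp, the chaperone of the centromeric H3 variant, at -1.15. In vitro against slice 3 weeks 1 chaperone was higher and 1 lower (Daxx 0.77 and Hjurp -1.99), beside 13.3% and 20% of all genes, and from slice 1 day to slice 3 weeks 1 rose and 6 fell, beside 13.9% and 12.8%, among them Set (-1.15), Ncl (-1.11) and Npm1 (-1.04).

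Of the genes that process replication-dependent histone mRNA, 13 of 14 were tested. In vitro 2 were higher and 2 lower than in adult (15.4% each, beside 22.4% and 28.5% of all genes), in slice 1 day 4 and 2 (30.8% and 15.4%, beside 24.9% and 25.4%), in slice 1 week 1 and 2 (7.69% and 15.4%, beside 15% and 13.6%), and in slice 3 weeks 0 and 1 (0% and 7.69%, beside 18% and 17.5%). The list was not tested as a set. Slbp, whose product binds the stem-loop, had 108 and 143 CPM in adult and 60.7 and 55.8 in vitro, and fell by 1.11 (edgeR adjusted p = 0.00250). It was higher in marker-positive cells by 0.63 ± 0.10 (adjusted p = 0.000121), the only gene of its list called there. Npat, the coactivator of histone gene transcription, was lower in slice 1 day than in adult by 0.99 (adjusted p = 0.0365) and higher in slice 3 weeks than in slice 1 day by 1.57 (adjusted p = 0.00776). The list had 2 genes higher and 0 lower in vitro than in slice 3 weeks (15.4% and 0%, beside 13.3% and 20% of all genes). From slice 1 day to slice 3 weeks it had 1 and 3 (7.69% and 23.1%, beside 13.9% and 12.8%). In S-marker cells Casp8ap2 alone was higher (0.62), which is 7.69% beside 1.48% of all genes. Of 13 genes of the remodellers that exchange H2A.Z or H3.3, 1 was higher and 1 lower in vitro (Znhit1 1.01 and Srcap -1.39), 1 and 4 in slice 1 day, 0 and 3 in slice 1 week, 1 and 1 in slice 3 weeks, 0 and 2 in vitro against slice 3 weeks, 1 and 2 between slice 1 day and slice 3 weeks, and 0 in both comparisons of cell classes. With 13 genes, 1 gene is 7.69% and 4 are 30.8%, to be read against the same shares of all genes. Of the cycle markers that defined the classes, 10 of 13 S-phase and 13 of 13 G2 and M-phase genes were higher in vitro than in adult, 12 and 13 in slice 1 day, 2 and 8 in slice 1 week, and 12 and 13 in slice 3 weeks, with none lower. As shares these are 76.9% and 100%, 92.3% and 100%, 15.4% and 61.5%, and 92.3% and 100%, beside 22.4%, 24.9%, 15% and 18% of all genes. In vitro against slice 3 weeks, 0 S-phase genes were higher and 6 lower (0% and 46.2%), and 2 and 1 of the G2 and M-phase genes (15.4% and 7.69%), beside 13.3% and 20% of all genes. Between slice 1 day and slice 3 weeks, 3 G2 and M-phase genes rose (23.1%, beside 13.9% of all genes) and no other gene of both lists was called by edgeR. Cenpa, the H3 variant of centromeres, which the symbol rule leaves out, had 4.83 and 4.64 CPM in adult and 43.2 to 156 in the cultures, and was lower in S-marker than in G2M-marker cells by 3.43 (adjusted p = 1.80e-17).

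Cells with over 1% of neutrophil-marker UMIs or at least 3 monocyte-marker UMIs made up 21.4% and 21.5% of slice 1 day and 23.0% of slice 1 week replicate 1, against 1 cell in slice 1 week replicate 2 and 0 to 6 cells elsewhere. In an alternative chosen after seeing the data they were left out. The histone genes called were then 18 in vitro, 16 in slice 1 day, 7 in slice 1 week and 13 in slice 3 weeks against adult of 33 tested, beside 51.1%, 50%, 26.2% and 35.9% of all genes, and 17, 18, 7 and 14 of 35 with them (50.9%, 50.3%, 28.6% and 35.5% of all genes). Over the 6 comparisons of groups, 6 calls of named genes were lost and none changed its direction. The calls lost were those of Hist2h4 (-1.88, edgeR adjusted p = 0.0563) and Hist4h4 (-2.25, 0.0551) in slice 1 day against adult, of Hist1h2ag (0.0532) and Hist2h3c1 (-1.65, 0.0614) in slice 3 weeks against adult, and of H3f3a (-0.29, 0.207) and Hist2h3c1 (-1.82, 0.0713) between slice 1 day and slice 3 weeks.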

How the data were processed

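Single-cell 3' libraries were sequenced from sorted mouse microglia of 5 groups. The authors deposited 1 table of UMI counts per gene and cell for each library (Cell Ranger 1.3.0, mm10, per the submitters' processing notes). The published methods state default parameters for this tool, and the annotation is not given in the sources used here. Reads that match several genes are not counted under that tool's defaults, so near-identical histone genes are uncertain. Cells with at most 5% mitochondrial UMIs, at least 400 genes and at most 30000 UMIs were kept; no doublet caller was run. Rows sharing a symbol were summed.

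UMIs were summed per library and fitted in edgeR 4.0.16 (R 4.3.3; TMM, filterByExpr with a minimum count of 10, glmQLFit, glmQLFTest) with the 5 groups in 1 model of 12155 genes. The labels call the replicates biological. Classes of cells were fitted with the library as a block. Genes were called at a Benjamini-Hochberg adjusted p under 0.05 and a fold change over 1.5. Scripts were tested on simulated data. Replicate numbers are not tied to shared animals, and deviations of equally numbered libraries correlated between -0.11 and 0.09 over 10 pairs, so the main model has no replicate block.

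Named are all variants with a UMI, the 12 replication-dependent genes with the highest mean level, in each comparison the 3 called genes of each class with the largest rise and fall, and, from the lists of cycle markers, histone mRNA processing, chaperones and remodellers, up to 4 called genes with the largest change plus Cenpa, Slbp, Npat and Asf1b. Hist1h2af, Hist1h2ai, Hist1h1a, Hist1h2ac and Hist1h2an, which lie outside this rule, and the counts of Hist1h2ap by cell were chosen after their values were seen. The genes and lists were chosen with earlier results of these data known. Alternatives were other scalings, filters, cell sets and tests (DESeq2 1.42.0), and leaving out each library.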

Additional observations from a re-analysis of the deposited data

How the results depend on the processing

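Of 111 calls of named genes, 42 were kept under every alternative run; over 2251 recomputed values 2034 kept their call, 207 lost it and 10 changed direction. Those 10 were H2afx within marker-positive cells (-1.61 in vitro, -1.12 in slice 1 day and -1.09 in slice 3 weeks), Hist1h2ae in slice 1 day without (-0.49) and within (-1.003) marker-positive cells, Hist2h2ac in slice 1 day within them (-1.43), H2afy2 in slice 1 week (-5.25 without its replicate 1, with up to 4.38 when other libraries were left out), and, in UMIs per cell without depth scaling, Hist2h2be (0.70) and Hist2h4 (0.22) in vitro and H2afv (0.91) in slice 1 day. The scaling by UMIs per cell moved the median of all genes to 2.04 in vitro, 1.49 in slice 1 day, 1.1 in slice 1 week and 1.05 in slice 3 weeks. The histone genes called against adult (17 in vitro, 18 in slice 1 day, 7 in slice 1 week, 14 in slice 3 weeks) were then 29, 30, 16 and 22. They were 11, 10, 3 and 7 with cells thinned to 1000 UMIs, where 19 were tested (all genes 45.1%, 40.6%, 14.5% and 31%), with 6 in place of 10 from slice 1 day to slice 3 weeks (all genes 18%). Without marker-positive cells, with 28 tested, they were 13, 11, 5 and 9 (48.6%, 46.2%, 25.6% and 34.3% of all genes), and within them, with 27 tested, 9, 7, 7 and 2 (24.9%, 22.1%, 8.27% and 8.99%), beside 50.9%, 50.3%, 28.6% and 35.5% of all genes with all cells. With no filter on low counts 74 were tested in place of 35 (40 for marker-positive cells), and 13 were called in slice 1 week (17.6%, all genes 23.2%), 24 in vitro against slice 3 weeks (32.4%, all genes 26%), 18 from slice 1 day to slice 3 weeks (24.3%, all genes 21%) and 34 in marker-positive cells (45.9%, all genes 6.32%), against 20%, 40%, 28.6% and 52.5% with the filter. With the study label as covariate 17 were higher and 2 lower in vitro (median log2 fold change 0.84, without it 14 and 3 and 0.23), 14 and 3 in slice 1 day (1.04, without it 13 and 5 and 0.59), 11 and 1 in slice 1 week, 11 and 4 in slice 3 weeks, 11 and 5 in vitro against slice 3 weeks, and 4 and 9 from slice 1 day to slice 3 weeks (without it 4 and 6), with 49.5%, 49%, 27.6%, 36.2%, 35% and 30.2% of all genes called. The calls lost were those of Hist2h4 in vitro (-0.97, edgeR adjusted p = 0.195) and in slice 1 day (-1.18, 0.194), of Hist2h2ac (1.07, 0.158) and Hist4h4 (-1.33, 0.158) in slice 1 day, and of H2afj in slice 3 weeks (0.58, under the fold required). In slice 1 week 12 were called with this covariate and 12 by DESeq2 (all genes 28.2%). Leaving out 1 library at a time, with 42 to 46 tested between groups, gave 16 to 22 in vitro (all genes 37.6% to 52.5%), 12 to 21 in slice 1 day (35.2% to 51.3%), 3 to 10 in slice 1 week (11.4% to 29.9%) and 11 to 19 in slice 3 weeks (25% to 37.9%) against adult, 7 to 18 in vitro against slice 3 weeks (19.5% to 37.4%), 3 to 14 from slice 1 day to slice 3 weeks (11.5% to 33.5%), 16 to 22 of 36 to 40 in marker-positive cells (7.75% to 9.06%) and 12 to 20 of 17 to 33 for S-marker against G2M-marker cells (4.4% to 5.6%). Summed levels of single libraries ranged over 173 to 387, 304 to 332, 294 to 399, 316 to 418 and 362 to 459 CPM (adult, slice 1 day, slice 1 week, slice 3 weeks, in vitro) for replication-dependent and 2394 to 2812, 3988 to 4037, 3362 to 4024, 2629 to 3275 and 4178 to 4361 for variant genes. Without marker-positive cells the replication-dependent mean was 260 in slice 1 day, 242 in slice 3 weeks and 307 in vitro, and the variant mean 3872 in slice 1 day, 3136 in slice 1 week and 3784 in vitro. By library size only the variant mean was 2925 in adult, 4132 in slice 1 day, 3589 in slice 1 week, 2882 in slice 3 weeks and 3873 in vitro. Slice 3 weeks thus lay just below adult on that scale, where the main values were 2952 and 2603. Over all barcodes the variant mean was 4069 in slice 1 day and 4483 in vitro, and without neutrophil- and monocyte-marker cells 3828 and 4413. The shares of cells at 1000 UMIs ranged over 17.2% to 33.2%, 20.7% to 21.5%, 23.7% to 27.7%, 19.7% to 23.2% and 23.4% to 28.1%; at 1800 UMIs, which left out 413 and 1618 adult cells, the latter of 3527, their means were 40.1%, 33.1%, 43.7%, 32.1% and 37.8% and over all UMIs 48.9%, 65.7%, 70.9%, 59.5% and 86.5% in the same order. The cause of these shifts was not tested.

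With the replicate block 17, 16, 8 and 13 histone genes were called against adult, 14 between both cultures of 3 weeks and 11 from slice 1 day to slice 3 weeks, against 17, 18, 7, 14, 14 and 10 without it; of all genes 50%, 49.2%, 27.7%, 34.2%, 32.1% and 25.5% were called with the block. With the numbers of slice 3 weeks crossed, a pairing chosen after seeing the data, 10 were called in the last comparison. Slice 1 week, with 209 cells and a floor of 2.14 CPM for 3 UMIs over the group, limits what could be detected there.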
